A study of Arabidopsis thaliana with 4 samples.

Results

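Expansins and xyloglucan endotransglucosylase/hydrolases (XTHs) are the secreted proteins best known for loosening the plant cell wall. The genes examined were the nuclear protein-coding genes of Arabidopsis thaliana whose symbol or synonym is EXPA, EXPB, EXLA, EXLB or XTH plus a number. These were 69 of 27444 such genes in the gene table, of which 36 were expansins (24 EXPA, 6 EXPB, 3 EXLA and 3 EXLB) and 33 were XTHs. The symbol itself matched for 63 of them and a synonym for the other 6, among them TCH4 (XTH22) and the natriuretic peptide gene PNP-A (EXLB3). The rule used names only and no measured value. It left out EXP26 (AT5G39290), which stands in the same array as EXPA21 to EXPA25 under a symbol without the A, and the pseudogene EXPA19 (AT3G29365).

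A growing plant cell is held in by cellulose microfibrils tied together by xyloglucan and embedded in pectin. Expansins let these polymers slip past each other at acidic pH without cutting them; EXPA and EXPB proteins are the classes with known loosening activity, whereas the role of the expansin-like EXLA and EXLB proteins is not settled. XTHs cut xyloglucan and join the cut end to another xyloglucan chain or, in some members, to water. Many of these genes are switched on in particular growing cells, such as root hairs or expanding leaves, and by growth hormones.

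Binding of SHORT LIFE (SHL), a plant reader of histone marks that has BAH and PHD domains, was mapped by chromatin immunoprecipitation and sequencing (ChIP-seq) in whole seedlings of the Col-0 ecotype. The plants were ebs shl mutants that carried SHL tagged with HA under its native promoter, so every sample carried the ebs mutation, which affects the close relative EBS, and an anti-HA antibody recovered the tagged protein. Plants were about 10 days old, and a day had 16 h of light followed by 8 h without. Of 2 ChIP samples, each had its own list of peaks, while 2 input samples of the same line, prepared with no antibody, were not analysed here. The labels do not say whether the replicates are separate cultures, so their agreement may be technical. Whole seedlings mix all cell types, so binding in few cells and weak binding in many cannot be told apart. Replicate 1 listed 3668 nuclear peaks and replicate 2 listed 3487, with median widths of 1076 and 1216 bp. Each peak carries a deposited score, taken here as that of the authors' peak caller although the lists have no header to say so, with medians of 39.2 and 39.9 over nuclear peaks; scores were read within a list only. Read depth is unknown from these lists.

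A gene was counted in a replicate when a peak overlapped its body, or the 1 kb on either side of it, by at least 1 bp, and it was called when this held in both replicates. SHL peaks were called on 8 of the 69 cell wall loosening genes (11.6%, exact 95% interval 5.14 to 21.6), against a background of 8.66% of all protein-coding genes. The share of the whole group thus lay near the background, which its interval contains, and the results are about single genes. The called genes were EXPA12, EXPA18, EXPA24, EXPA25, XTH26, XTH30, XTH31 and XTH32. They rest on 7 peaks in each list, because EXPA24 and EXPA25 are neighbours reached by the same peak. On the gene body alone, 6 genes were called (8.70%, interval 3.26 to 18.0), against a background of 5.86%. Loosening genes were shorter than average, with a median body of 1659 bp against 2078 bp; among all protein-coding genes within their range of 760 to 2711 bp the backgrounds were 9.76% with flanks and 6.96% on the body.

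Expansins and XTHs gave like shares, with 4 of 36 expansins (11.1%, exact 95% interval 3.11 to 26.1) and 4 of 33 XTHs (12.1%, interval 3.40 to 28.2) called. The position of the peaks is given by count only. All 4 called XTH genes were called on the body, whereas 2 of the 4 called expansins, EXPA18 and EXPA25, were reached only in the flank. EXPA25 was reached by the peak that lay on EXPA24. Of all protein-coding genes, 2378 were called with flanks and 1608 on the body, so counts of 4 genes say little here. All 4 called expansins were EXPA genes, and none of the 6 EXPB (upper limit 45.9%), 3 EXLA or 3 EXLB genes (upper limit 70.8% each) was called, which in families this small says little. These differences between families were not tested.

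**Figure D1:**
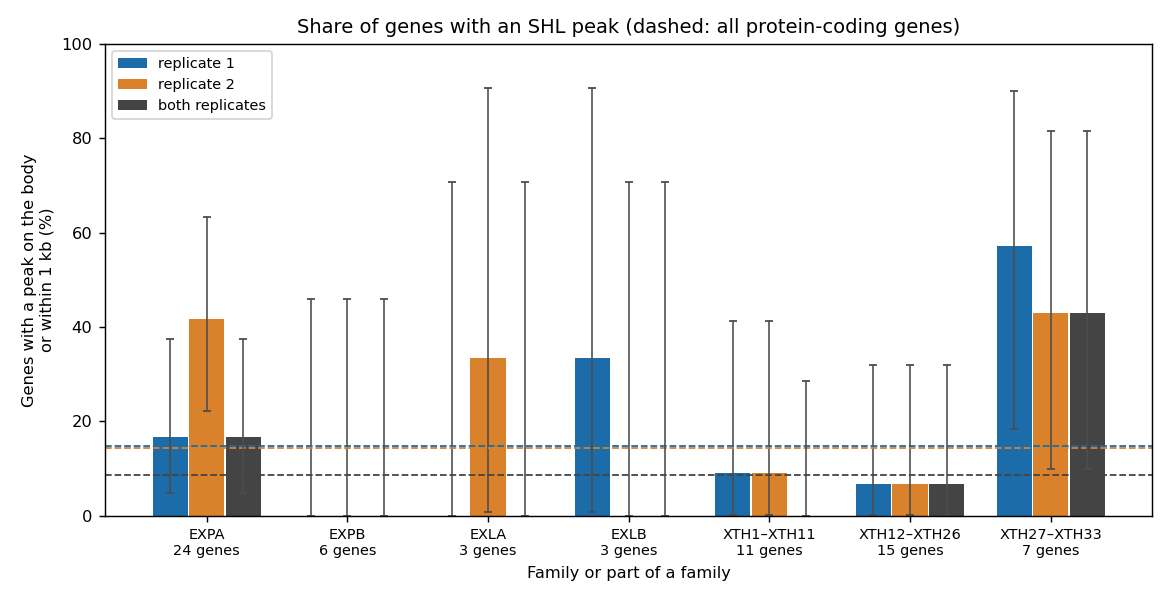
Share of genes (%) with an SHL peak on the body or within 1 kb in replicate 1, in replicate 2 and in both, by family; error bars are exact 95% intervals and cover counting error only, and dashed lines give the shares of all 27444 protein-coding genes (14.8%, 14.4% and 8.66%). EXPA genes reach 41.7% in replicate 2 against 16.7% in replicate 1, and XTH27 to XTH33 have the tallest bar for both replicates, at 3 of 7 genes.

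Among the XTH genes, XTH32 and XTH26 had the strongest peaks. XTH32 (AT2G36870) belongs with XTH31 to the branch of the family in which xyloglucan hydrolysis is known. Its region at chromosome 2, 15472334 to 15473865, scored 260.9 in replicate 1, above 78.7% of the nuclear peaks of that list, and 282.3 in replicate 2, above 79.8%. The peaks overlapped each other over 865 bp and both had their midpoint within the body, at 13.7% and 28.7% of its length from the end with the lower coordinate. No other gene of the table was touched by either peak, so this binding was placed on XTH32 alone.

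XTH26 (AT4G28850), a gene expressed in roots, held a region at chromosome 4, 14244329 to 14246494. It scored 375.6 in replicate 1, above 81.4% of the peaks in its list, and 240.0 in replicate 2, above 78.7%. Peaks covered 97.8% of the body in replicate 1 and 53.0% in replicate 2, and both reached into the neighbouring gene ckl4 (AT4G28860). The midpoints were in XTH26, at 64.1% and 83.9% of the body.

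XTH31 (AT3G44990), the closest relative of XTH32 in the family and an enzyme with xyloglucan hydrolase activity, was called with far lower scores. Its region at chromosome 3, 16446766 to 16448941, scored 22.4 in replicate 1, above only 12.8% of the peaks in its list, and 49.3 in replicate 2, above 57.5%. Peaks covered 52.3% of the body in replicate 1 and 98.6% in replicate 2, and their overlap of 972 bp made up 83.2% of the first peak but 49.1% of the second. The XTH31 call therefore ends when each peak must be overlapped by at least 50%. Scores of at least 50 in both lists also exclude it.

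XTH30 (AT1G32170) had nearly the same peak in both lists, at chromosome 1, 11574755 to 11576346. It scored 40.4 in replicate 1, above 51.1% of the peaks in its list, and 30.3 in replicate 2, above 36.8%. Scores of at least 50 in both lists exclude this gene. The 1515 bp that both peaks shared were 95.2% of the peak in replicate 1 and all of that in replicate 2. The peaks straddled the lower-coordinate end of the gene, with midpoints 230 and 201 bp inside it, and touched no other gene. A further peak of each list lay outside the window, 1964 and 1547 bp beyond the other end of XTH30, with its midpoint in the non-coding RNA gene AT1G32172.

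By number, XTH genes follow the usual phylogeny of the family, in which XTH27 to XTH33 form group III. This grouping was brought in after the values had been seen, so its counts are a description with no test. Called genes in XTH27 to XTH33 were XTH30, XTH31 and XTH32, 3 of 7 (42.9%, exact 95% interval 9.90 to 81.6), against a background of 8.66%. They were 1 of 15 in XTH12 to XTH26 (XTH26, 6.67%) and 0 of 11 in XTH1 to XTH11 (upper limit 28.5%). At a score of at least 50 in both lists, only XTH32 of group III was kept. XTH27 (AT2G01850, EXGT-A3), which is known from leaf vein development, added a peak in replicate 1 only, scoring 35.9 and lying wholly within the body. The other 3 members of group III had no peak within 1 kb in either list: XTH28, XTH29 and the cell-surface enzyme XTH33.

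**Figure D2:**
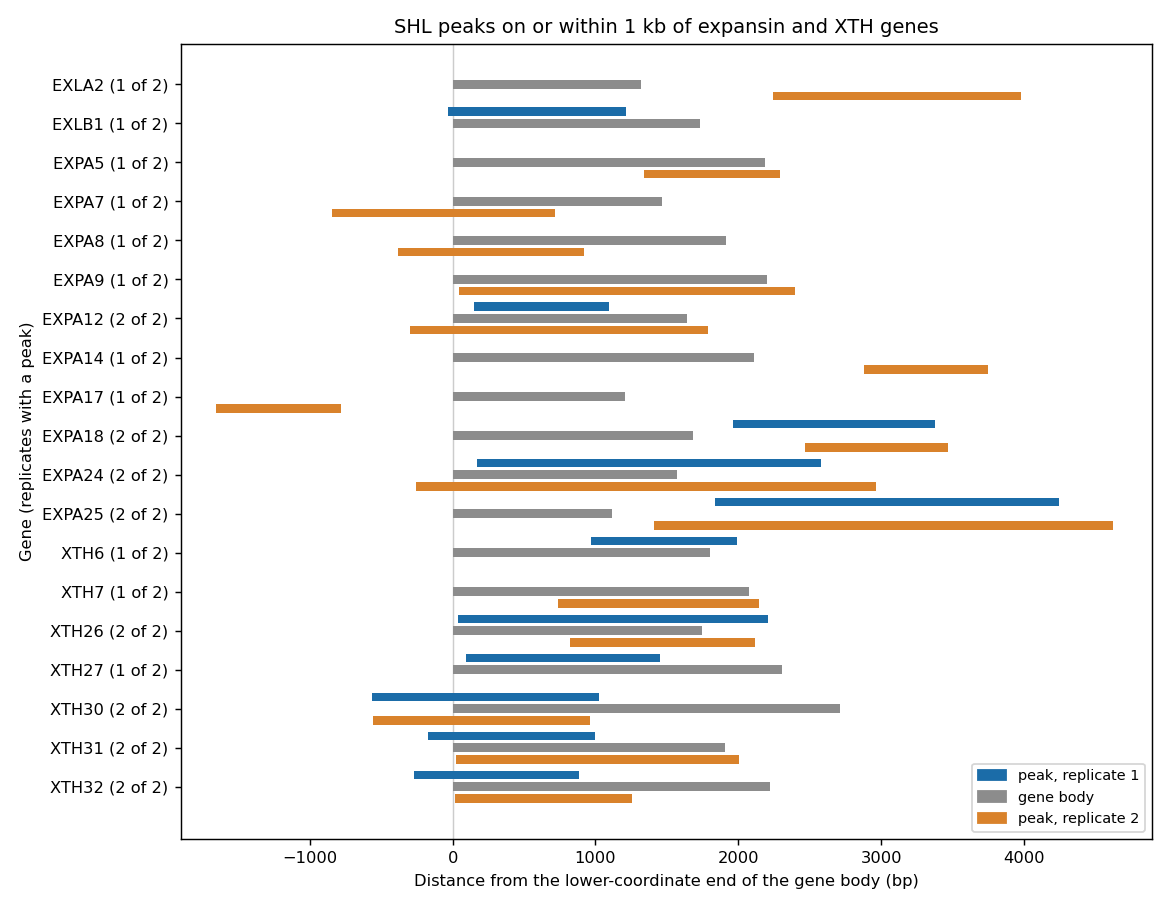
Peaks of replicate 1 (blue) and replicate 2 (orange) on or within 1 kb of the 19 genes with any such peak; each grey bar is a gene body, drawn from its end with the lower chromosome coordinate, in bp. The gene table gives no strand, so this end is not known to be the start of transcription. Peaks lie over the bodies of all 7 XTH genes shown, whereas those of EXPA14, EXPA17, EXPA18, EXPA25 and EXLA2 lie beside the body.

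Among expansins, EXPA24 carried one of the highest scores that the lists give. EXPA24 (AT5G39310) ends an array of expansin genes on chromosome 5, and its region at chromosome 5, 15738776 to 15741992, scored exactly 3100 in both replicates. That value was shared by 225 nuclear peaks of replicate 1 and 195 of replicate 2, so it was not read as a rank; 93.4% and 94.1% of the peaks in the lists scored lower, and 16 and 10 peaks scored higher. The peaks were broad, at 2412 and 3217 bp, and covered 89.2% and all of the EXPA24 body. Their midpoints lay at 87.4% and 85.9% of the body, and both peaks ran on past its higher-coordinate end into sequence with no annotated gene. The sources used here do not say how reads from similar gene copies were placed.

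The next gene of that array, EXPA25 (AT5G39300), was called only because the EXPA24 peak came within 723 bp of it in replicate 1 and within 297 bp in replicate 2. No peak touched the EXPA25 body. The other array members had their nearest peaks at increasing distances: 7.41 and 6.99 kb for EXPA23, 8.97 and 8.55 kb for EXPA22, and 11.7 and 11.3 kb for EXPA21. EXP26, outside the rule, had no peak within 1 kb either. In each list, both calls in the array thus came from 1 peak, the one on EXPA24.

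EXPA12 (AT3G15370) had unequal peaks on its body at chromosome 3, 5190257 to 5192343. Replicate 1 gave a peak of 944 bp scoring 28.9, above 32.9% of its list, and replicate 2 a peak of 2087 bp scoring 119.8, above 73.0% of its list. The first lay entirely inside the second, which covered the whole body. Since the overlap was only 45.2% of the larger peak, EXPA12 was lost when at least 50% of each peak had to be shared. It also fell out at a score of at least 50, where the replicate 1 peak failed.

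EXPA18 (AT1G62980), an expansin of root hairs, was called through peaks beside it at chromosome 1, 23333527 to 23335031. They scored 42.7 and 55.3 and shared 915 bp. The gaps to the EXPA18 body were 281 and 783 bp, and the midpoints of both peaks lay in the neighbouring gene AT1G62981. The call of EXPA18 thus describes a peak on its neighbour. EXPA7 (AT1G12560), the other root hair expansin, had a peak in replicate 2 only. That peak scored 21.5, above 8.57% of its list, and also overlapped HPR3; its midpoint fell 66 bp outside EXPA7.

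**Figure D3:**
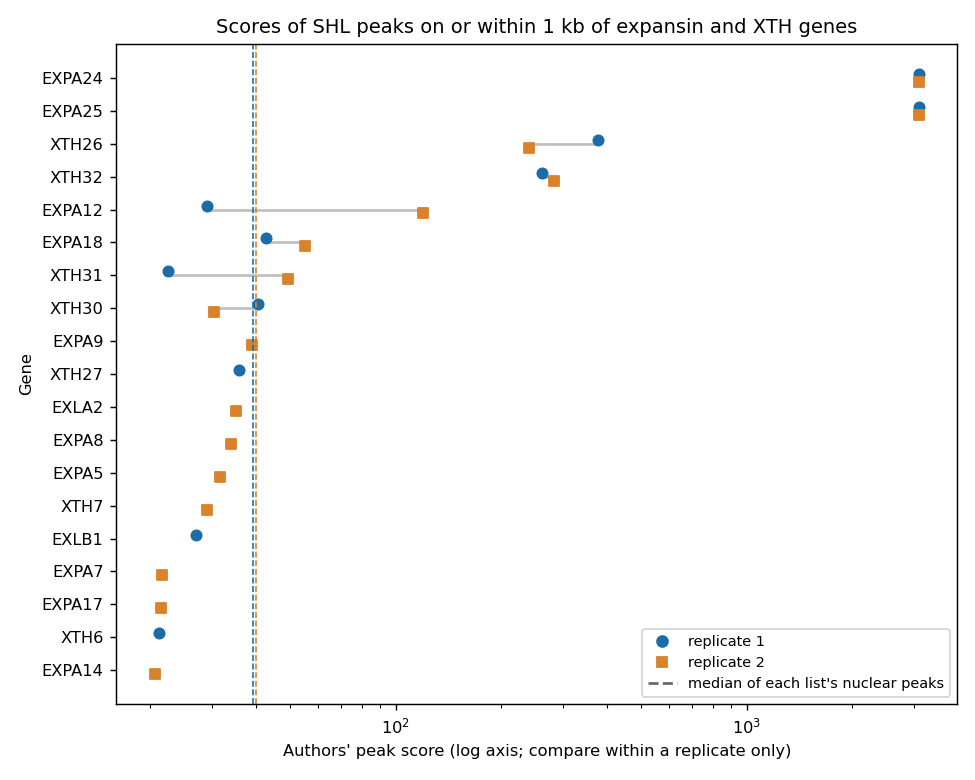
Authors' score of the highest peak on or within 1 kb of each of the 19 genes (log axis), with replicate 1 as circles and replicate 2 as squares; grey lines join the replicates of a called gene and dashed lines mark the median score of each list. EXPA24 and EXPA25 share a peak at 3100, XTH26 and XTH32 sit between 240 and 376, and all 11 genes with a peak in 1 replicate sit below the list medians.

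Peaks found in a single replicate were all weak. In replicate 1, 11 of 69 genes had a peak (15.9%, background 14.8%), and in replicate 2, 16 did (23.2%, background 14.4%). Counting either list gave 19 genes (27.5%, background 20.5%). Of these, 8 were in both lists (42.1%, exact 95% interval 20.3 to 66.5), which is close to the 42.3% over all protein-coding genes with a peak in either list. The 3 peaks of replicate 1 alone scored 21.2 to 35.9 and the 8 of replicate 2 alone scored 20.6 to 38.9, with medians of 27.0 and 30.3. Over all protein-coding genes, peaks in a single replicate had medians of 27.3 and 27.0.

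The counts of the replicates differed most for EXPA genes, although genes of other families also had a peak in 1 replicate only. Replicate 2 had peaks at 10 of 24 EXPA genes (41.7%, exact 95% interval 22.1 to 63.4) and replicate 1 at 4 (16.7%, interval 4.74 to 37.4), and those 4 were the called genes. On the body alone, the counts were 6 and 2, with backgrounds of 10% in replicate 2 and 10.2% in replicate 1. Over all protein-coding genes, the split was near even, with 1670 genes in replicate 1 alone and 1577 in replicate 2 alone. Whether the EXPA difference exceeds chance cannot be tested with 1 list on each side.

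The 6 EXPA genes of replicate 2 alone differed in how the peak sat on them. EXPA9 (AT5G02260) had the highest score, 38.9, from a peak of 2347 bp that covered 97.9% of the body, while the nearest peak of replicate 1 was 35823 bp away. EXPA8 (AT2G40610) scored 33.95 and EXPA5 (AT3G29030), which is known to promote growth, scored 31.6; peaks covered 48.2% and 38.8% of these bodies. EXPA7 is described above. EXPA14 (AT5G56320) scored 20.6 and EXPA17 (AT4G01630), which acts in lateral root emergence, scored 21.4; their peaks stood 776 and 780 bp from the body. The last 2 were thus both weak and distant.

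Outside the EXPA family, 5 of 45 genes had a peak in 1 replicate only (11.1%, background 11.8%), as against 6 of 24 EXPA genes (25%). XTH27, described above, was one of the 5. EXLB1 (AT4G17030) had a peak of 27.0 in replicate 1, and 97.2% of this peak lay in the body. EXLA2 (AT4G38400) had one of 34.9 in replicate 2, but 924 bp away and with its midpoint in AT4G38410. XTH6 (AT5G65730) scored 21.2 in replicate 1, and XTH7 (AT4G37800) scored 29.0 in replicate 2, each with the midpoint in the body. The pseudogene EXPA19 had a peak within 1 kb in replicate 1 only.

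The 1 kb limit mattered for a few genes. Just inside it, by the nearer of the lists, were EXPA18 at 281 bp, EXPA25 at 297 bp, EXPA14 at 776 bp, EXPA17 at 780 bp and EXLA2 at 924 bp. Just outside it were XTH8 (AT1G11545), with gaps of 1169 bp in replicate 1 and 1011 bp in replicate 2, and EXPB3 (AT4G28250), with 1145 and 1164 bp. Peaks of both lists near XTH8 had their midpoints in AT1G11560 and scored 34.4 and 36.9, and those near EXPB3 had theirs in AT4G28240 and scored 30.1 and 34.7. A limit of 2 kb would call both, for 10 genes in all.

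The remaining 50 genes (72.5%) had no peak within 1 kb in either list, against 79.5% of all protein-coding genes. Having no peak was thus usual, and many of the best known genes were without one. TCH4 (XTH22, AT5G57560), a classic gene induced by touch, had its nearest peaks 26.7 kb away in replicate 1 and 26.1 kb in replicate 2. For XTH9 (AT4G03210) the distances were 62.2 and 69.8 kb, and for XTH21 (AT2G18800), which acts in root growth, 21.5 and 65.6 kb. EXPA1 (AT1G69530), known from guard cells, was 27.7 and 38.7 kb from a peak, and EXPA10 (AT1G26770), which promotes leaf growth, 10.2 and 24.0 kb. EXPA2 (AT5G05290), an expansin of germinating seeds, was 38.9 and 10.2 kb away. XTH4, XTH28 and XTH33 had no peak within 5 kb in either list, with distances of 41.9 and 5.47 kb, 6.08 and 29.6 kb, and 28.4 and 38.5 kb.

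Of the 26 XTH genes without a peak, 18 were over 10 kb from the nearest one in both lists. So were 11 of the 24 expansins without a peak. The matching share of all genes was not counted. Within 10 kb of a peak in replicates 1 and 2 were 46.4% and 45.0% of all protein-coding genes. The shares were 36.4% and 33.3% for all XTH genes, and 41.7% and 61.1% for all expansins. Over all 33 XTH genes, the median distance was 26.7 kb in replicate 1 and 22.1 kb in replicate 2. Over the 36 expansins it was 11.8 and 8.50 kb, and over all protein-coding genes 11.4 and 11.9 kb. Neighbouring XTH genes share their surroundings, so these distances are not independent values and carry no test.

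**Figure D4:**
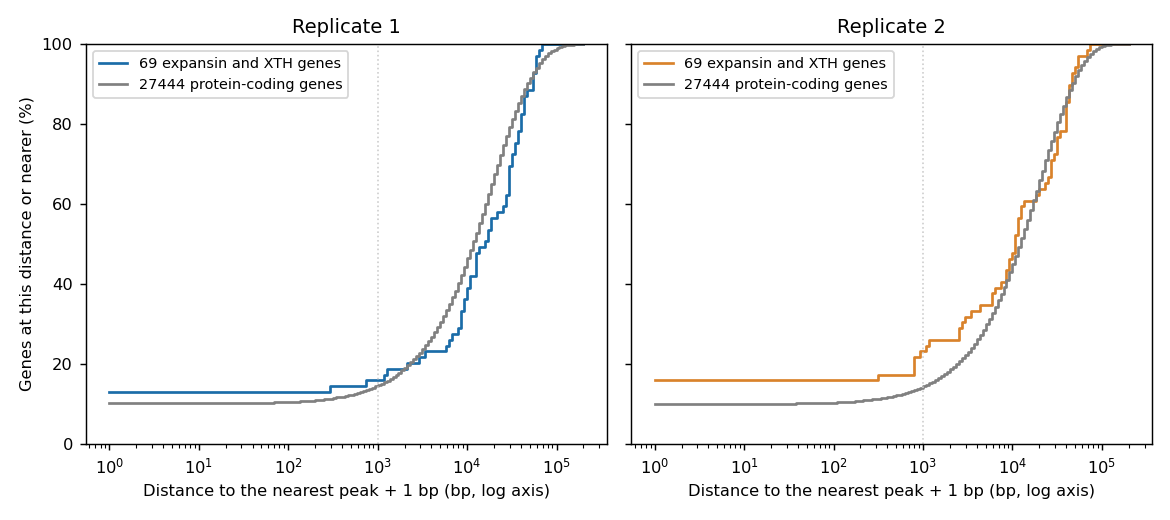
Cumulative share (%) of the 69 expansin and XTH genes (coloured) and of all 27444 protein-coding genes (grey) by the distance from the gene body to the nearest peak, in bp plus 1 on a log axis, in each replicate; the dotted line marks 1 kb. In replicate 2 the coloured line starts at 15.9% and lies above the grey one well past 1 kb, with 47.8% against 45.0% at 10 kb. In replicate 1 it starts at 13.0% and runs below the grey one over much of the range beyond 2 kb.

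Genes in arrays and genes that stood alone were called at like shares. With bodies at most 10 kb apart counted as an array, 20 of the 69 genes fell into 7 arrays and 49 stood alone. In the arrays 2 genes were called (10%), EXPA24 and EXPA25, which were reached by the same peak, so this share rests on a single region. Of the genes that stood alone, 6 were called (12.2%). Both shares lay near the background of 8.66%. Counting either list, against a background of 20.5%, the array genes stayed at 2 while 17 of those alone had a peak (34.7%); this difference was not tested. The array of XTH12, XTH13, XTH25 and TCH4 on chromosome 5 and that of XTH24, XTH18 and XTH19 on chromosome 4 had no peak within 1 kb of any gene. Called genes were spread over all 5 chromosomes, with 1 or 2 on each.

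With peaks scoring at least 100 in both lists, 4 genes remained of the 8 called, EXPA24, EXPA25, XTH26 and XTH32, or 5.80% against a background of 2.71%. The same 4 were called at a score of at least 50 and with the 1000 highest-scoring peaks of each list. The genes kept by the higher limit rest on 3 peaks per list.

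**Figure D5:**
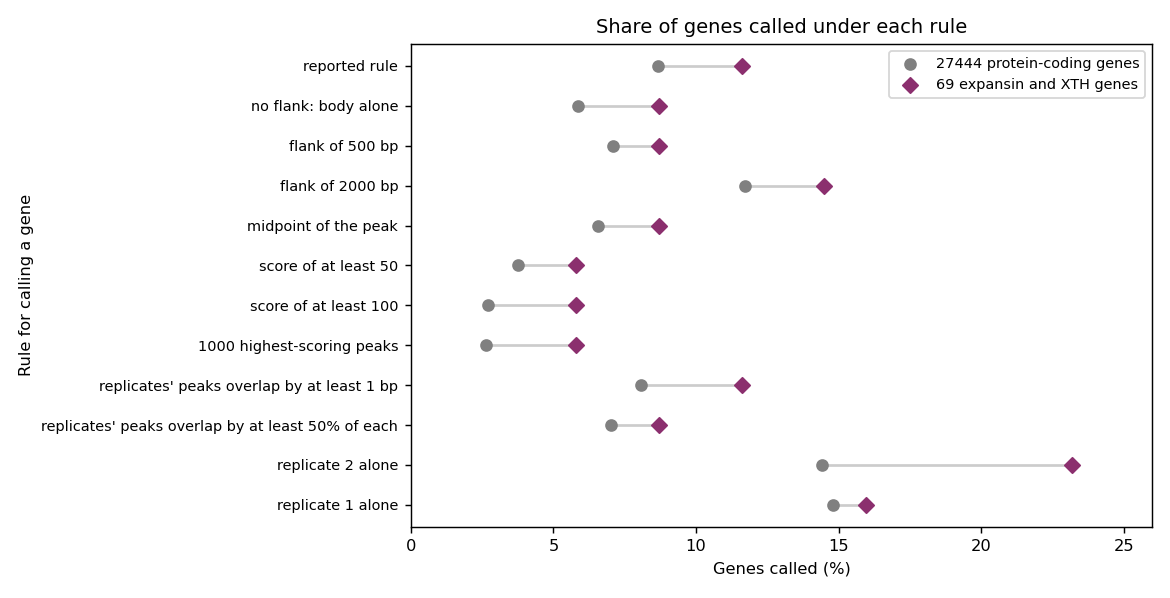
Share of genes called (%) under the reported rule and 11 other rules, for the 69 expansin and XTH genes (diamonds) and all 27444 protein-coding genes (circles). The diamond lies to the right of the circle under every rule drawn; the gap is widest for replicate 2 alone, at 23.2% against 14.4%, and narrowest for replicate 1 alone, at 15.9% against 14.8%. All rules recount the same genes and peaks, so they are not independent of each other. The circles are not limited to genes of like length.

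Other genes of the cell wall, taken by symbol in 10 lists, spread widely around the background of 8.66%. None of 10 cellulose synthase genes (CESA, upper limit 30.8%), 5 xyloglucan xylosyltransferase genes (XXT, upper limit 52.2%) or 5 single genes of xyloglucan and cellulose formation (XYL1, MUR3, FUT1, KOR1 and COB, upper limit 52.2%) was called. Cellulose synthase-like genes gave 1 of 20, which was CSLA01, called in the flank with scores of 21.4 and 31.1. Endoglucanases of family GH9 gave 3 of 24 (12.5%), with GH9B14 scoring 370.5 and 164.1, GH9B15 scoring 32.6 and 50.4, and GH9B17 scoring 21.4 and 24.7. Fasciclin-like arabinogalactan genes gave 2 of 20, FLA8 with 568.6 and 465.8 and FLA10 with 141.5 and 117.4.

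By count, the lists of genes that act on pectin and the extensins lay above the background of 8.66%, whereas the fasciclin-like genes (10%) lay near it. Pectin methylesterases, which change the charge of pectin, gave 8 of 15 genes with a PME symbol (53.3%, exact 95% interval 26.6 to 78.7). PME2 scored 67.3 and 67.7, and its neighbour PME1 was called through the same peak. No other called PME gene scored at least 50 in both lists, and none reached 100 in either. The PME share thus rests largely on weak peaks. ATPMEPCRB (PME41) followed with 40.2 and 36.2. Their inhibitors gave 1 of 4 (25%, interval 0.631 to 80.6), PMEI6 (AT2G47670), with 45.7 and 38.6. Polygalacturonases and related genes gave 2 of 6 (33.3%, interval 4.33 to 77.7). The intervals of these inhibitors and polygalacturonases contain the background. ADPG1, whose product separates cells in pods and anthers, scored 1784 and 1428 from a peak in its flank. ADPG2 scored 39.7 and 51.2 on its body. Extensins and leucine-rich repeat extensins gave 4 of 9 (44.4%, interval 13.7 to 78.8), led by LRX3 with 3198 and 3053, LRX2 with 47.7 and 99.5, and EXT10 with 29.5 and 53.0. Symbols cover only a part of the pectin methylesterase family, no list was tested, and the difference from expansins and XTHs was not tested.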

How the data were processed

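Peaks came from 1 list per ChIP sample, so the authors called them per sample. MACS 1.4, Bowtie2 2.2.8 and SAMtools 1.3 are the tools, and TAIR10 the build, per the submitters' processing notes; settings, filters and the control are not given in the sources used here. Each peak has a deposited score, taken as that of the authors' caller, which no header states. Genes came from the RefSeq table of assembly TAIR10.1, whose coordinates are not printed. With peaks of replicate 1 unshifted, 64.9% of midpoints lay in protein-coding bodies, against 36.9% and 36.1% after shifts of -1500 and 1500 bp. The table has no strand, and exons, promoters and sequences were not analysed here. Percentiles are the share of a list's nuclear peaks with a lower score. Intervals are exact (Clopper-Pearson, 95%, scipy 1.17.1), cover counting error only and treat genes as independent. Overlap counting was tested on simulated peaks. The genes and lists were chosen with earlier results of these data known, so no list was tested. Every expansin or XTH gene with a peak within 1 kb is named, and up to 3 called genes of each other wall list; the background restricted by length and the XTH groups were added after the data were seen. The planned motif counts were not run.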

Additional observations from a re-analysis of the deposited data

How the results depend on the processing

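Under 11 other rules the loosening genes called ran from 4 to 16, against 8. A score of at least 50, of at least 100, and the 1000 highest-scoring peaks each gave 4 genes in all, 2 expansins, 2 XTHs and 3 on the body (reported: 4, 4 and 6), while all protein-coding genes fell from 2378 to 1026, 743 and 724. Expansins fell to 2 with no flank, with 500 bp, and with the midpoint of the peak in place of any overlap. Leaving out a replicate gave 11 to 16 genes, 5 to 11 expansins, 5 to 6 XTHs, 9 to 11 on the body and 3955 to 4048 protein-coding genes; without replicate 1, expansins numbered 11. Stricter score rules leave fewer peaks, and leaving out a replicate drops the need for a peak in both. The cause of these changes was not tested. All other counts of these groups stayed within 1.5 times the reported ones. No paired analysis was possible because only the ChIP group had peak lists. Read depth is unknown, so a missing peak does not show that SHL was absent.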
